A study of Mus musculus with 6 samples.

Results

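The tricarboxylic acid (TCA) cycle and the pentose phosphate pathway are the main routes of carbon use beside glycolysis, and 32 genes of their enzymes are described here across cells exposed to fluid flow and cells that were not. The genes were chosen by name, as TCA cycle, anaplerotic (carbon-replenishing) and pentose phosphate enzymes, and the rule itself uses no measured value. All 32 symbols were found once each among the 39174 genes of the deposited table. All 32 had a mean of at least 1 FPKM (fragments per kilobase of transcript, scaled to the depth of the library) and entered the test, as did 11957 genes in all.

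The cells were MLO-Y4, a line of mouse long-bone cells with features of osteocytes, seeded on collagen-coated glass. In the flow group, 3 cultures received oscillating fluid flow in parallel-plate chambers at 10 dyn/cm² for 2 h and were lysed after another 2 h in fresh medium. In the non-flow control group, 3 sham-treated cultures were taken alongside. The replicates came from separate days, which the labels do not match between the groups, and both groups are the same unmodified line. As a single immortalized line grown in flat culture, it models some features of osteocytes only. Of 7 osteocyte markers, Gja1, Pdpn and Phex were above 1 FPKM in every library, Sost, Mepe and Fgf23 were listed at 0 in every library, and Dmp1 reached at most 0.0354 FPKM. In all 6 libraries the 6 markers of leukocytes, endothelium, epithelium, muscle and fat were below 0.5 FPKM. Of 3 genes shared with osteoblasts and fibroblasts, Col1a1 had 140 to 169 FPKM in controls and 105 to 159 in flow, Col1a2 had 109 to 123 and 91.97 to 97.4, and Runx2 had 8.22 to 9.32 and 3.88 to 9.88; their part in the results was not tested.

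In the mitochondrial TCA cycle, acetyl groups join oxaloacetate to form citrate, and later steps release carbon dioxide, reduce the carriers NAD and FAD and restore oxaloacetate. The oxidative branch of the pentose phosphate pathway turns glucose 6-phosphate into ribulose 5-phosphate and makes NADPH, the reductant of biosynthesis and antioxidant defence. The non-oxidative branch interconverts sugar phosphates and links ribose supply back to glycolysis. In bone cells glucose use is known to run largely through glycolysis, so the question was whether enzymes of carbon metabolism outside glycolysis differed with flow.

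Before the values, 2 libraries need mention. Read numbers, inferred from the finest spacing between low FPKM values, were 17910000 to 19230000 in the 3 controls and flow library 3, but 11020000 in flow library 1 and 5760000 in flow library 2. In the same 2 libraries, differences from the control mean followed the GC content of transcripts. Over 10460 protein-coding genes the Pearson correlation with GC content was -0.55 in flow library 1, -0.54 in flow library 2 and 0.012 in flow library 3, a description across genes that share a library. The lowest estimated read number of an enzyme in a library was 132, for Idh1. Results below are therefore also given after removal of the GC trend. They are given without flow library 3 as well, to show what rests on it. That setting keeps in the flow group only the 2 libraries with fewer reads and the GC trend, so it corrects for neither.

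None of the 32 enzymes passed the test between flow and control. By limma on log2(FPKM + 1), with p adjusted over all genes tested by the Benjamini-Hochberg method and a threshold of 0.05, 0 of 32 were called, and their adjusted p ran from 0.559 to 0.964. Over all genes the share called was 0.0167%. At an unadjusted p under 0.05 there was 1 enzyme, Idh3a, against 8.52% of all genes tested. Log2 fold changes, flow minus control on that scale, lay between -0.37 (Tkt) and 0.32 (Dld), with 11 above 0 and 21 below 0. Their median was -0.04, beside -0.011 for all genes tested. The median size of the difference, whatever its sign, was 0.11 among the enzymes and 0.18 among all genes tested. These medians are not matched for level: the genes tested reach down to a mean of 1 FPKM, and the lowest control mean of an enzyme was 11.2 FPKM. The 95% intervals of all 32 enzymes lay inside -0.79 (the lower bound for Tkt) and 0.66 (the upper bound for Rpe). All 32 intervals thus lay within 1 log2 unit of 0. They rest on the spread among 3 cultures per group, with each gene's variance drawn by limma toward a trend over all genes tested. In these bulk samples fewer cells expressing a gene and less RNA per cell cannot be told apart.

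**Figure D1:**
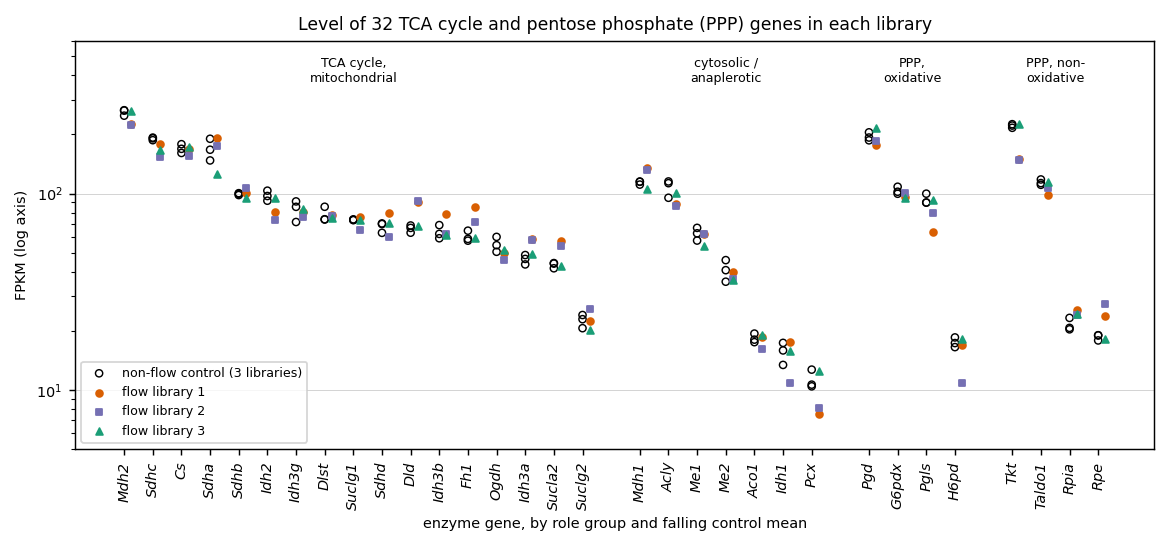
FPKM on a log axis for each of the 32 genes, by role group and falling control mean; open circles are the 3 controls and filled symbols the 3 flow libraries. Control means run from 11.2 (Pcx) to 259.7 FPKM (Mdh2), and the open circles of a gene lie close together.

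The enzymes covered a wide range of levels. Control means ran from 11.2 FPKM for Pcx, the pyruvate carboxylase that feeds oxaloacetate to the cycle, to 259.7 FPKM for Mdh2, the mitochondrial malate dehydrogenase. The coefficient of variation among the 3 controls had a median of 5.82% over the enzymes, from 0.446% (Suclg1) to 12.9% (Idh1), beside a median of 10.7% over all genes tested. Among the 3 flow libraries the enzymes' median was 10.1%, and in 25 of 32 it was larger than among the controls. For all genes the flow median was 17.1%. The medians over all genes include genes of lower level and are not matched to the enzymes.

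In the mitochondrial cycle, 17 genes were measured, with 8 log2 fold changes above 0 and 9 below, and the median was -0.014. Cs, citrate synthase, which starts the cycle, had 169, 161 and 178 FPKM in controls 1 to 3 and 169, 155 and 172 FPKM in flow libraries 1 to 3. The groups overlapped, and the log2 fold change was -0.04 (95% interval -0.25 to 0.17). Idh3a, Idh3b and Idh3g encode the subunits of the NAD-linked isocitrate dehydrogenase, the catalytic subunit being Idh3a. Idh3a (ENSMUSG00000032279, chromosome 9 at 54586334 to 54604661 of mm10) measured 48.6, 43.5 and 46.4 FPKM without flow and 59.0, 58.2 and 49.4 with it. All 3 flow values lay above all 3 controls, with flow library 3 just above the highest of them. Its log2 fold change was 0.26 with SE 0.10 (limma, unadjusted p = 0.048, adjusted p = 0.559). The partner subunits gave no such separation: Idh3b averaged 63.5 ± 5.05 FPKM without flow and 67.3 ± 9.73 with it (SD, n = 3), and Idh3g had 82.8 ± 10.1 and 80.1 ± 3.85. Idh2, the NADP-linked mitochondrial isocitrate dehydrogenase, measured 103, 91.9 and 97.1 FPKM without flow and 80.5, 73.4 and 94.6 with it. Flow libraries 1 and 2 were below every control and flow library 3 was inside the control range.

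The 2-oxoglutarate dehydrogenase complex is built from Ogdh, Dlst and Dld, with log2 fold changes of -0.16, -0.014 and 0.32. After GC correction these were -0.086, 0.026 and 0.11, and none was called in either setting. Ogdh, the decarboxylating subunit, averaged 55.1 ± 4.84 FPKM without flow and 49.2 ± 3.02 with it (SD, n = 3), and Dlst, the succinyl-transferring core, had 77.8 ± 6.80 and 76.8 ± 1.29. Dld, the dihydrolipoamide dehydrogenase that this complex shares with pyruvate dehydrogenase, measured 68.7, 63.2 and 66.8 FPKM without flow and 90.2, 91.9 and 68.0 with it. Flow libraries 1 and 2 lay far above the controls and flow library 3 lay among them, which left a log2 fold change of 0.32 with SE 0.14 (limma, adjusted p = 0.559).

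Succinyl-CoA ligase pairs the shared subunit Suclg1 with either Sucla2, which makes ATP, or Suclg2, which makes GTP. Suclg1 was nearly identical in the 3 controls at 73.5 ± 0.328 FPKM and had 71.5 ± 5.39 in flow (SD, n = 3). Sucla2 measured 41.6, 44.2 and 44.0 FPKM without flow and 57.4, 54.05 and 42.5 with it, and Suclg2 had 22.5 ± 1.75 and 22.9 ± 2.78. The FPKM ratio of Sucla2 to Suclg2 was 2.02, 1.84 and 1.92 in controls and 2.55, 2.09 and 2.10 in flow. The flow ratios were all above the control ratios, a description chosen as 1 of 5 paralog pairs and not tested. Suclg2 also has an annotated copy of 98.9% identity elsewhere in the genome, so its value is uncertain.

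Succinate dehydrogenase, which is also complex II of the respiratory chain, has the catalytic subunits Sdha and Sdhb and the membrane anchors Sdhc and Sdhd. Sdhc (ENSMUSG00000058076, chromosome 1 at 171127165 to 171150603) measured 187, 193 and 191 FPKM without flow and 179, 153 and 167 with it. It was the only enzyme with all 3 flow values below all 3 controls, with a log2 fold change of -0.19 and SE 0.088 (limma, adjusted p = 0.559). Sdha measured 167, 147 and 190.0 FPKM without flow and 192, 175 and 126 with it, so that flow library 3 was the lowest and flow library 1 the highest of the 6. Sdhb averaged 99.4 ± 1.10 FPKM without flow and 100.7 ± 5.89 with it, and Sdhd had 67.8 ± 4.11 and 70.3 ± 10.0 (SD, n = 3). Fh1, fumarase, measured 58.7, 57.5 and 64.7 FPKM without flow and 84.9, 71.3 and 59.5 with it, again with flow libraries 1 and 2 above and flow library 3 within the controls. Mdh2, which closes the cycle, measured 266, 249 and 264 FPKM without flow and 225, 224 and 263 with it, the same arrangement on the other side.

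**Figure D2:**
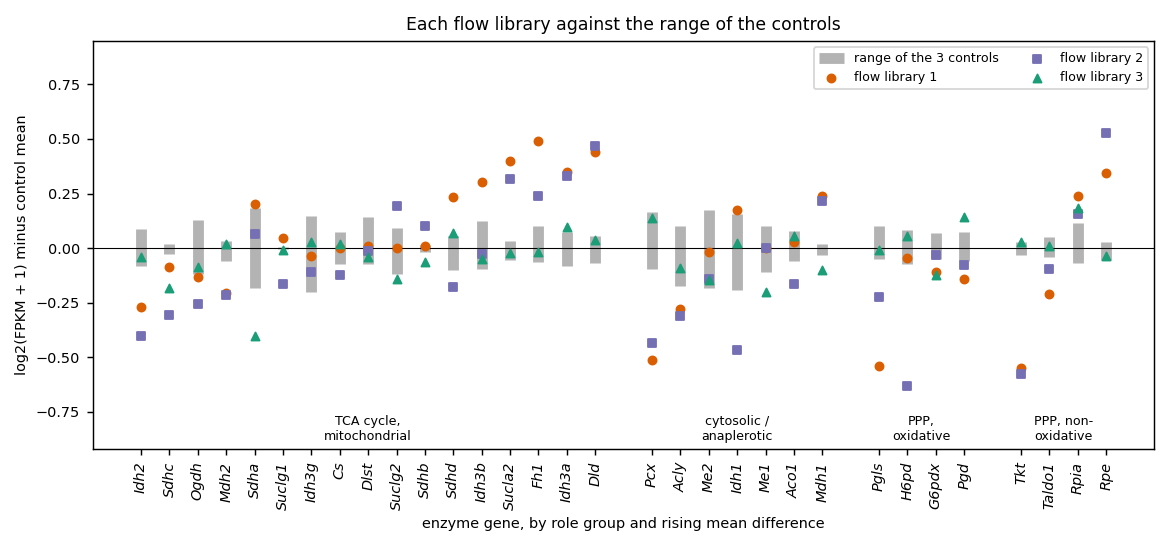
Log2(FPKM + 1) minus the control mean in each flow library (symbols), with the range of the 3 controls as a grey bar, for the 32 genes by role group. In 11 genes flow libraries 1 and 2 lie on the same side outside the bar while flow library 3 lies within it, Tkt not among them because its flow library 3 value is just above the bar.

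The cytosolic partners of cycle enzymes and the genes that feed or drain it numbered 7, with 1 positive and 6 negative log2 fold changes and a median of -0.09. After removal of the GC trend the median was -0.16, with 2 positive and 5 negative. Pcx measured 10.4, 10.6 and 12.7 FPKM without flow and 7.55, 8.04 and 12.4 with it. Acly, the ATP citrate lyase that supplies acetyl-CoA for lipid synthesis in the cytosol, measured 115, 95.1 and 113 FPKM without flow and 88.4, 86.5 and 101 with it. In both genes flow libraries 1 and 2 were below every control and flow library 3 was within their range, and neither was called (log2 fold change -0.27 with SE 0.20 and -0.23 with SE 0.11). Mdh1, the cytosolic malate dehydrogenase, went the other way in the first 2 flow libraries: it measured 111, 115 and 115 FPKM without flow and 134, 132 and 106 with it. The FPKM ratio of Mdh1 to Mdh2 was 0.418, 0.461 and 0.435 in controls and 0.598, 0.591 and 0.403 in flow, so flow library 3 lay on the other side of the controls. The ratio is not corrected for GC content, which was 45.7% for Mdh1 and 55.4% for Mdh2. After removal of the GC trend the log2 fold change of Mdh1 went from 0.12 to 0.019 and that of Mdh2 from -0.13 to 0.017. Aco1, the cytosolic aconitase that doubles as iron regulatory protein, averaged 18.3 ± 0.952 FPKM without flow and 17.9 ± 1.53 with it (SD, n = 3). Idh1, the cytosolic NADP-linked isocitrate dehydrogenase, had 15.5 ± 2.00 and 14.7 ± 3.44. The malic enzymes, which turn malate into pyruvate, were Me1 in the cytosol at 62.4 ± 4.63 and 59.5 ± 4.78 FPKM and Me2 in mitochondria at 40.7 ± 5.12 and 37.7 ± 2.01. Me1 has 3 annotated copies of at least 95% identity, and its value is uncertain for that reason.

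All 4 genes of the oxidative pentose phosphate branch had negative log2 fold changes, with a median of -0.15, none was called, and in all 4 the groups overlapped. After removal of the GC trend the median was -0.0095 with 1 of 4 positive, and with flow library 3 also left out it was 0.029 with 3 of 4 positive. G6pdx, glucose-6-phosphate dehydrogenase, which commits glucose to the pathway, measured 102, 108 and 99.7 FPKM without flow and 95.8, 101 and 94.9 with it. Its log2 fold change of -0.09 had a 95% interval of -0.28 to 0.11. Another gene on the opposite strand, Ikbkg, shares 13.6% of its exon bases, and strand use in the counting is not known. Pgls, which hydrolyses the lactone made by G6pdx, measured 89.9, 99.8 and 89.98 FPKM without flow and 63.7, 79.6 and 92.7 with it. Fam129c on the same strand shares 20.6% of the exon bases of Pgls. Pgd, 6-phosphogluconate dehydrogenase, the second source of NADPH, measured 187, 205 and 193 FPKM without flow and 177, 184 and 215 with it. For Pgd flow libraries 1 and 2 were the lowest of the 6 and flow library 3 the highest. H6pd, which performs the first steps inside the endoplasmic reticulum, averaged 17.4 ± 1.00 FPKM without flow and 15.3 ± 3.87 with it (SD, n = 3). Flow library 2, the shallowest, stood lowest at 10.9 FPKM.

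The non-oxidative branch had 2 positive and 2 negative values. Tkt (ENSMUSG00000021957, chromosome 14 at 30548359 to 30574720) encodes transketolase, which moves carbon units between sugar phosphates, and gave the largest difference of the 32 enzymes. It measured 222, 216 and 225 FPKM without flow and 151, 148 and 226 with it. The 3 controls and flow library 3 lay close together while flow libraries 1 and 2 sat far below them, and the log2 fold change of -0.37 had SE 0.17 (limma, adjusted p = 0.559). Taldo1, transaldolase, which works beside transketolase, measured 113, 111 and 118 FPKM without flow and 98.3, 107 and 115 with it. Rpia (ENSMUSG00000053604, chromosome 6 at 70765720 to 70792232), the isomerase that makes ribose 5-phosphate, measured 23.3, 20.3 and 20.7 FPKM without flow and 25.4, 23.9 and 24.5 with it. All 3 of its flow values lay above the controls, with a log2 fold change of 0.19 and SE 0.093 (limma, adjusted p = 0.559). Rpe, the epimerase that makes xylulose 5-phosphate, measured 18.98, 18.94 and 17.8 FPKM without flow and 23.8, 27.2 and 18.1 with it. Kansl1l on the opposite strand shares 17.9% of the exon bases of Rpe.

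Few enzymes had flow and control values that did not overlap. In 2 of 32 enzymes, Idh3a and Rpia, every flow value exceeded every control, a state shared by 7.12% of all genes tested, and in 1 of 32, Sdhc, all lay below, against 8% of all genes tested. In the other deposited table of the same study, made at lower depth, Idh3a again had its groups apart, with 41.0, 38.6 and 40.4 FPKM in controls, 48.1 in flow library 1 and 49.9 and 48.3 in 2 flow columns whose names match no library. Rpia was apart there too, at 17.3 to 20.7 FPKM in controls and 21.7 to 23.2 in flow. Sdhc was not: it had 173, 145 and 180 FPKM in controls and 147 to 177 in flow. Separated groups with flow higher were found there in 4 enzymes (Dld, Idh3a, Rpe and Rpia), against 6.64% of the genes tested in it, and with flow lower in 0, against 5.91%. Limma called 0 enzymes in it, against 0.0252% of its genes, and 2 had an unadjusted p under 0.05, against 6.38%. Since 4 of its columns carry the titles of libraries in the first table, it is no independent experiment. Control library 1 had an estimated 690000 reads in it, against 3610000 to 4720000 in its other columns.

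Enzymes of every role group were among those that stood apart in flow libraries 1 and 2. In 17 of 32 both flow library 1 and flow library 2 lay on the same side outside the controls, 7 above (Idh3a, Dld, Sucla2, Fh1, Mdh1, Rpia and Rpe) and 10 below (Idh2, Ogdh, Sdhc, Mdh2, Pcx, Acly, Pgls, Pgd, Tkt and Taldo1). Taken singly, flow library 1 was above all controls in 12 enzymes and below in 11 (33.9% and 33.5% of all genes tested), flow library 2 in 9 and 16 (35% and 35.8%), and flow library 3 in 5 and 8 (23.6% and 25.5%). For libraries 1 and 2 jointly the shares of all genes tested were 22.8% above and 22.8% below. In 11 of the 32 enzymes, all of them among these 17, flow library 3 was within the control range, against 20.4% of all genes tested with that arrangement. In 3 of the 17 flow library 3 joined the other 2, and in 3 it lay on the opposite side. Leaving out flow library 3 keeps in the flow group only the 2 libraries with fewer reads and the GC trend. In that setting 12 enzymes had an unadjusted p under 0.05 (limma), against 26.4% of all genes tested. In it 0 were called, against 0.117% of all genes tested. The smallest adjusted p was then 0.0678, for Tkt, at a log2 fold change of -0.56 with SE 0.053. Dld followed at 0.45 (adjusted p = 0.0695) and Sucla2 at 0.36 (adjusted p = 0.0796).

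**Figure D3:**
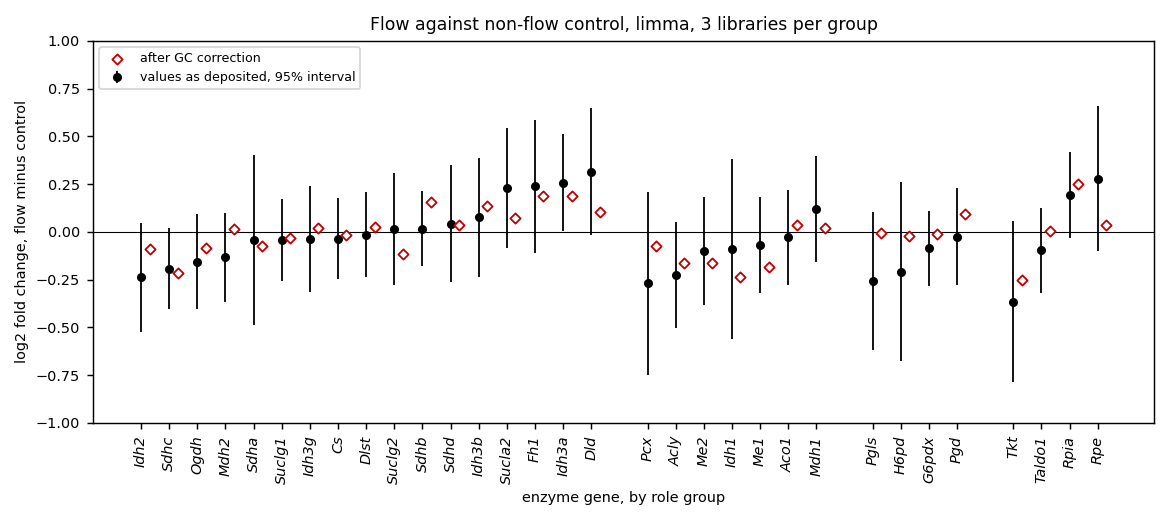
Log2 fold change, flow minus control, with its 95% interval from limma (black), and the value after GC correction (red diamonds), for the 32 genes by role group. Only the interval of Idh3a excludes 0, and after GC correction Pgls moves from -0.26 to -0.0066 while Rpia moves from 0.19 to 0.25.

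The differences in flow libraries 1 and 2 followed the GC content of the enzymes' transcripts. Over the 32 enzymes the GC content of the longest coding transcript ran from 39.1% (Rpe) to 65.9% (Pgls), and its Pearson correlation with the log2 fold change was -0.68 (Spearman -0.64). It was -0.75 with the difference from the control mean in flow library 1, -0.63 in flow library 2 and 0.26 in flow library 3. The 32 points share their libraries, and these values are descriptions. Among the 16 enzymes of highest GC content 13 log2 fold changes were negative and the median was -0.12, and among the 16 of lowest GC content 8 were negative and the median was 0.0016. Stretches of 120 coding bases from the 2 enzymes of lowest and the 2 of highest GC content are shown as examples; each lies in the longest coding exon, was taken where its GC content came nearest to that of the transcript, and has G and C in capitals.
Rpe: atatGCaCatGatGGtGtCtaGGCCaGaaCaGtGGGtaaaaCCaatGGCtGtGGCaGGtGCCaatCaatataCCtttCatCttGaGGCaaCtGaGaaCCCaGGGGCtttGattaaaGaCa
Dld: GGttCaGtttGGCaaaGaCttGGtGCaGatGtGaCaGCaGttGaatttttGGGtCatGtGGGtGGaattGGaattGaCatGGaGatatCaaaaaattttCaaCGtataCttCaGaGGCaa
Pcx: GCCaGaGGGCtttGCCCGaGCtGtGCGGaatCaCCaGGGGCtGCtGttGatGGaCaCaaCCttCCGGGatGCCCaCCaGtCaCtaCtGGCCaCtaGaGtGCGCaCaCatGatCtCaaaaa
Pgls: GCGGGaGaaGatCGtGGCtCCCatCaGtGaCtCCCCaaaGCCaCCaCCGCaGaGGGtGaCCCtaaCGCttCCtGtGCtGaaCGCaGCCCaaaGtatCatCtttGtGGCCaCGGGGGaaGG
They come from GENCODE M21 on mm10. The Rpe stretch is at chr1:66714577-66714696 on the plus strand, in exon 4 of 7, and 45.8% of its bases are G or C. The Dld stretch is at chr12:31335537-31335656 on the minus strand, in exon 9 of 14, with 40.0%. The Pcx stretch is at chr19:4618185-4618304 on the plus strand, in exon 14 of 21, with 57.5%, and the Pgls stretch is at chr8:71595063-71595182 on the plus strand, in exon 4 of 5, with 60.0%.

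**Figure D4:**
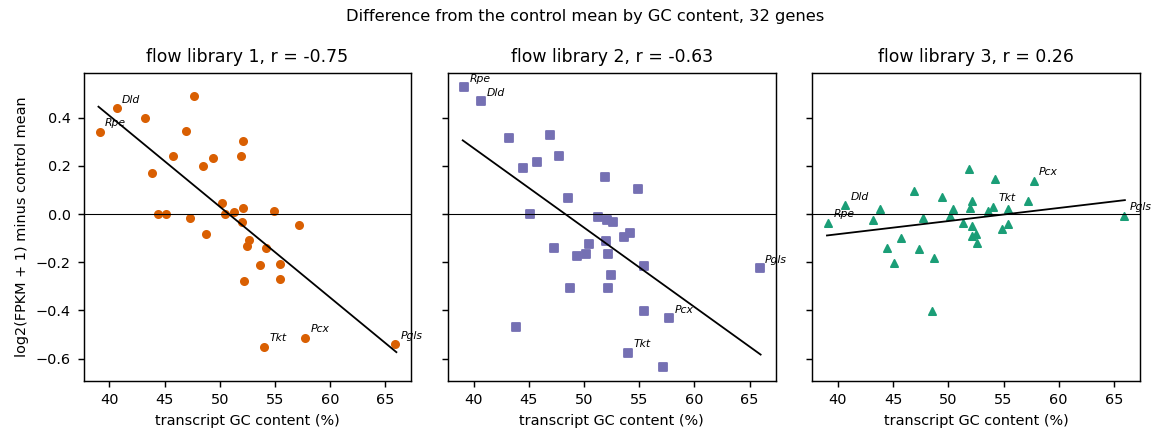
Difference of log2(FPKM + 1) from the control mean against transcript GC content for the 32 genes, 1 panel per flow library, with a least-squares line. The line slopes down in flow libraries 1 and 2 (r = -0.75 and -0.63) and not in flow library 3 (r = 0.26).

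Once the GC trend of each library was removed over all protein-coding genes, the balance of signs among the 32 enzymes became 16 positive and 16 negative, and the correlation with GC content became 0.011. A value near 0 is what the correction aims at, so it is no separate result. In flow libraries 1 to 3 singly the correlation over the enzymes was then -0.18, 0.062 and 0.21. The median size of the difference went from 0.11 to 0.081, and the difference became smaller in 20 of 32. Over all protein-coding genes tested the median size after the correction was 0.11. Pgls went from -0.26 to -0.0066, H6pd from -0.21 to -0.022, Mdh2 from -0.13 to 0.017 and Rpe from 0.28 to 0.035. Dld went from 0.32 to 0.11, Sucla2 from 0.23 to 0.07 and Pcx from -0.27 to -0.07. Tkt went from -0.37 to -0.25 and Idh3a from 0.26 to 0.19. Others became larger: Idh1 went from -0.09 to -0.23, Me1 from -0.07 to -0.18, Sdhb from 0.017 to 0.15, Idh3b from 0.08 to 0.14, Rpia from 0.19 to 0.25 and Sdhc from -0.19 to -0.22. After the correction 0 of 32 were called, with adjusted p of at least 0.717, against 0% of all genes tested, and 2 had an unadjusted p under 0.05 (Rpia and Sdhc), against 6.71%. Groups were then separated with flow higher in 3 (Dld, Idh3a and Rpia), against 6.41%, and with flow lower in 2 (Me1 and Sdhc), against 5.98%. With flow library 3 left out as well, 0 were called, again against 0% of all genes tested, 6 had an unadjusted p under 0.05, against 13.1%, and the groups were separated in 7 with flow higher, against 16%, and in 5 with flow lower, against 15.3%. Tkt then had a log2 fold change of -0.39 (limma, adjusted p = 0.142). The part of depth in these differences was not tested, and flow libraries 1 and 2 were both the shallow libraries and those with the GC trend.

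Promoter sequence was examined for 29 of the 32 genes, those matched by symbol in the RefSeq promoter table (GRCm38.p6), from 250 bases before to 50 after each annotated start. The 3 motifs were searched on both strands. The hypoxia response core ACGTG was present in 8 of 29 (Acly, G6pdx, Idh3g, Mdh1, Me1, Ogdh, Pcx and Sdha), against 23.2% of 17492 protein-coding genes. The antioxidant response element TGACNNNGC was present in 7 of 29 (Dlst, G6pdx, Idh3g, Mdh1, Me1, Pgd and Sucla2), against 14.8%. The NRF1 motif (GCGCA, then 1 further base, then GCGC) was present in 5 of 29 (Dld, Pgls, Sdha, Sdhd and Sucla2), against 7.17%. The G6pdx match is shown because this gene gates the pathway. It starts 57 bases before the start site, at chrX:74428909-74428957 with its surroundings, on the minus strand as transcribed, and the capitals mark the motif in its reverse orientation.
G6pdx: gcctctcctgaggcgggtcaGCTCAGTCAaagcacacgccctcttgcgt
A match is a string of letters and no measure of binding. With 0 of the 32 enzymes called, against 0.0167% of all genes tested, calls cannot compare holders of a motif with the others.

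Genes that feed, carry or assemble the pathways were examined next. In 6 lists there were 43 genes, of which 37 were tested and 0 were called, against the 0.0167% of all genes tested given above. Where groups are described as apart below, the shares of all genes tested were 7.12% with flow higher and 8% with flow lower. In pyruvate entry, 5 of 6 values were positive, and the largest belonged to Mpc2, a subunit of the mitochondrial pyruvate carrier. Mpc2 measured 21.8, 19.9 and 17.1 FPKM without flow and 39.6, 33.0 and 22.6 with it, with the groups apart (log2 fold change 0.64, SE 0.21; limma, adjusted p = 0.559). The pyruvate dehydrogenase subunits Pdhb and Pdha1 had log2 fold changes of 0.11 and 0.10. After GC correction Mpc2 had 0.73, Pdhb 0.054 and Pdha1 -0.0067, and 4 of 6 values were positive. Among 9 genes of amino acid and propionate anaplerosis, 4 were positive and 5 negative. Of these, Pck2, the mitochondrial phosphoenolpyruvate carboxykinase, had a log2 fold change of -0.21, and Got1, the cytosolic aspartate aminotransferase, had -0.39. After GC correction they had -0.17 and -0.32, and 3 of the 9 values were positive. Among 5 carriers, Slc25a1, which exports citrate to the cytosol, measured 98.7, 92.6 and 95.8 FPKM without flow and 69.1, 67.5 and 83.8 with it. The groups were apart (log2 fold change -0.38, SE 0.11; limma, adjusted p = 0.559), and after GC correction the value was -0.17. The aspartate-glutamate carriers Slc25a13 and Slc25a12 had 0.31 and 0.26, and 0.24 and 0.18 after GC correction.

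Of 9 genes of ribose and sugar phosphates 6 were tested. Pgm2, a phosphoglucomutase, measured 41.1, 38.1 and 55.3 FPKM without flow and 26.3, 22.6 and 30.9 with it, with the groups apart. Its log2 fold change was -0.72 with SE 0.18 (limma, adjusted p = 0.559), the same after GC correction (-0.72). Prpsap2, a regulatory partner of ribose-phosphate pyrophosphokinase, had 0.33 with its groups apart, and Prps1, the kinase itself, had 0.28. After GC correction they had 0.23 and 0.16, and 0 of the 6 genes had all flow values above the controls, against 6.41% of all genes tested in that setting. Tktl1 and Tktl2, the transketolase paralogs, were listed at 0 in every library, and Shpk was under 1 FPKM. All 6 other sources of NADPH had negative values, with a median of -0.06. The smallest p there belonged to Aldh1l1 (-0.53), Me3 (-0.26) and Mthfd1 (-0.05). After GC correction they had -0.41, -0.33 and 0.029, and 5 of the 6 values were negative. Of 8 assembly and cofactor genes, 5 were tested, with Sdhaf2 at 0.22, Lipt2 at 0.28 and Hlcs at -0.17. After GC correction these had 0.042, 0.33 and -0.16.

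**Figure D5:**
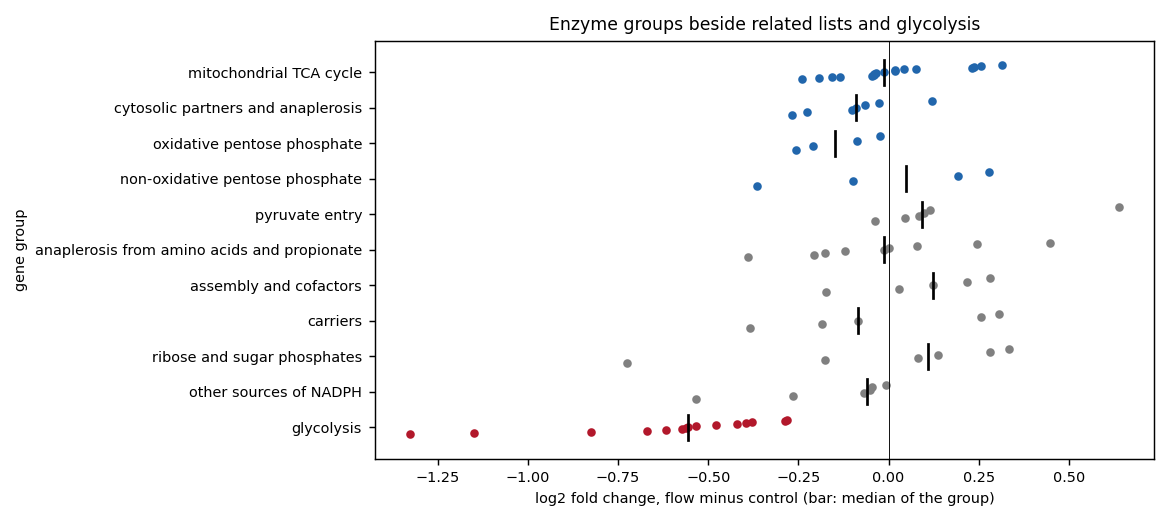
Log2 fold change, flow minus control, of each tested gene in the 4 enzyme groups (blue), 6 related lists (grey) and glycolysis (red), with the median as a bar. The 15 glycolysis genes all lie below 0 with a median of -0.56, and the medians of the 4 enzyme groups lie between -0.15 and 0.048.

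Glycolysis, the route that the enzymes above branch from or follow, is given beside them because it shares the same libraries. All 15 tested genes of that list had negative log2 fold changes, with a median of -0.56 (-0.40 after GC correction), beside -0.04 (-0.00059 after GC correction) for the 32 enzymes. In 11 of 15 all flow values lay below all controls, against the 8% of all genes tested given above, and 0 were called. The 3 with the smallest p were Eno1, an enolase, at -0.56 (SE 0.11), Pgam1, a phosphoglycerate mutase, at -0.48 (SE 0.11), and Gpi1, glucose-6-phosphate isomerase, at -0.57 (SE 0.13), each with adjusted p = 0.559 by limma. The median difference from the control mean was -0.66, -0.70 and -0.29 for glycolysis in flow libraries 1 to 3. For the 32 enzymes it was 0.000935, -0.10 and -0.012. The difference between both lists was not tested.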

How the data were processed

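RNA of 3 flow and 3 non-flow control cultures was sequenced as 50-cycle single-end reads, per the labels' protocols. Cufflinks 2.2.1, TopHat2 2.0.9 and CASAVA 1.8.2 are the tools, and mm10 the build, per the submitters' processing notes; annotation, settings and strand use were not given in the sources used here. The authors deposited 2 tables of FPKM values, with no counts, so no count model was fitted. The table whose 6 columns all name library titles was used; the other was an alternative, in which 22 repeated gene rows were reduced to the row of higher mean. Genes averaging 1 FPKM or more over the 6 libraries entered limma 3.58.1 in R 4.3.3 (eBayes with a variance trend, two-sided tests) on log2(FPKM + 1), a scale that understates changes of low genes. P-values were adjusted by Benjamini and Hochberg's method and called under 0.05. An exact permutation test of 3 against 3 cannot go below p = 0.1. GC correction removed each library's lowess trend (span 0.3) of log2 deviation on transcript GC content over protein-coding genes (GENCODE M21). Depth was inferred from the spacing of low FPKM values and is not a stated read number; 3 reads per kilobase correspond to 0.156 to 0.521 FPKM. The fit was tested on simulated data. The enzymes and lists were chosen with earlier results of these data known. All 32 enzymes are named; those with separated groups or an unadjusted p under 0.05, and the most abundant of each role group, are described in most detail, and of each related list the 3 genes of smallest p are named, except 1 that is not reported here. Alternatives varied pseudocount, filter, scaling, gene set, GC correction, pairing, table, variance trend and libraries.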

Additional observations from a re-analysis of the deposited data

How the results depend on the processing

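In none of the settings was an enzyme called by limma. Counts in this paragraph belong beside shares of all genes tested. An unadjusted p under 0.05 (limma) was found in 8.52% as reported, 11.7% with the replicate block and 26.4% without flow library 3. Without flow library 3, all flow values lay above in 22.8% and below in 22.8%, and with GC correction as well in 16% and 15.3%. Where no share is given here or above, a count is no result particular to the enzymes. The number with an unadjusted p under 0.05, 1 of 32 as reported, was 0 with a pseudocount of 0.1, without the variance trend and with the replicate block (adjacent titles as pairs), 2 without a filter, with GC correction and in the other deposited table, 3 with the replicate block and GC correction together, and 6 with GC correction and flow library 3 left out, a setting chosen after seeing the data. Leaving out 1 library at a time gave 0 to 12, with 0 without control library 1, control library 3 or flow library 2, and 12 without flow library 3. Enzymes with all flow values above the controls, 2 as reported, numbered 4 in the other table, 7 with GC correction without flow library 3, and 2 to 7 with 1 library left out (4 without control library 1, 7 without flow library 3). Those with all flow values below, 1 as reported, numbered 2 with quantile normalization, GC correction or the replicate block with GC correction, 0 in the other table, 5 with GC correction without flow library 3, and 1 to 10 with 1 library left out (7 without control library 2, 3 without control library 3, 2 without flow library 1 or 2, 10 without flow library 3).

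Some log2 fold changes turned their sign. With GC correction, and equally with the replicate block added to it, values were 0.034 for Aco1, 0.018 for Idh3g, 0.026 for Dlst, -0.11 for Suclg2, 0.017 for Mdh2, 0.094 for Pgd and 0.0054 for Taldo1. With flow library 3 left out as well they were 0.023 for Aco1, 0.013 for Idh3g, 0.058 for Dlst, -0.10 for Suclg2, 0.087 for Sdha, 0.011 for Mdh2, 0.041 for G6pdx, 0.016 for Pgls, 0.067 for Pgd and 0.00073 for Taldo1. In the other table they were 0.046 for Suclg1, -0.0070 for Suclg2, -0.033 for Sdhd, 0.024 for G6pdx and 0.0049 for Taldo1. With 1 library left out, ranges spanned 0 for Cs (-0.072 to 0.0092), Aco1 (-0.069 to 0.041), Idh1 (-0.22 to 0.098), Idh3b (-0.039 to 0.14), Idh3g (-0.14 to 0.033), Dlst (-0.050 to 0.056), Suclg1 (-0.086 to 0.019), Suclg2 (-0.070 to 0.096), Sdha (-0.17 to 0.13), Sdhb (-0.026 to 0.058), Sdhd (-0.053 to 0.15), Me1 (-0.12 to 0.00098), H6pd (-0.34 to 0.0041) and Pgd (-0.11 to 0.033). The cause was not tested.

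The median log2 fold change of the 32 enzymes became 0.014 with GC correction without flow library 3, and -0.066 to -0.0098 with 1 library left out. For the mitochondrial cycle that range was -0.042 to 0.029, the latter without flow library 3. For cytosolic partners and anaplerosis it was -0.19 to -0.016, GC correction gave -0.16 and the other table -0.26. The oxidative pentose phosphate median was -0.0095 with GC correction, with or without the replicate block, -0.041 in the other table, 0.029 with GC correction without flow library 3, and -0.22 to -0.056 with 1 library left out. The non-oxidative median was 0.020 with GC correction, with or without the replicate block, 0.13 in the other table, and 0.021 to 0.074 with 1 library left out. Over all genes tested the median was -0.0066 with a pseudocount of 5, -0.0058 with a filter of 5 FPKM, 0.016 with quantile normalization, -0.0041 with median scaling, -0.0074 for protein-coding genes, -0.0023 with GC correction, with or without the replicate block, -0.0048 in the other table, 0.0020 with GC correction without flow library 3, and -0.017 to -0.0083 with 1 library left out. The difference between flow and control in the Idh1 to Idh2 ratio was -0.037 in the other table and 0.018 in the table used for the tests. In that other table control library 1, estimated at 690000 reads, had Idh1 at 34.3 FPKM, against 13.4 and 15.4 in control libraries 2 and 3. Aco1 was 29.2 FPKM in it, against 17.7 and 16.5. Both genes belong to the cytosolic group, and the part of depth was not tested. No label pairs the libraries: deviations of adjacent titles correlated at 0.043, 0.023 and 0.064, and the replicate block left the number of enzymes called at 0, against 0.00836% of all genes tested.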
